A study of Mus musculus with 12 samples.

Results

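The 7 B cell genes *Cd79a*, *Cd79b*, *Ms4a1*, *Pax5*, *Ighm*, *Vpreb3* and *Blnk* were followed in whole lungs of C57BL/6 mice. They were chosen by symbol, from 16152 genes in the table of raw counts, and all 7 were found there and in the CPM table, in which the reads of a gene are scaled to the mapped reads of the library. RNA was sequenced at 4 time-points, embryonic days E15.5 and E18.5 and postnatal days P5 and P8, with 3 libraries at each, from untreated animals of both sexes carrying no transgene or mutation in the labels. All 3 lungs at each time-point were taken from 1 litter, so litter and time-point cannot be told apart, and p-values measure the spread between these libraries. The tissue was whole lung without any sorting of cells, and in such bulk RNA fewer cells of a type and less RNA per cell cannot be told apart.

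B cells are the lymphocytes that carry immunoglobulin as their antigen receptor. The receptor consists of a membrane immunoglobulin, which in naive cells has the mu heavy chain encoded by *Ighm*, and of the signalling pair encoded by *Cd79a* and *Cd79b*. Engagement of the receptor leads through *Syk* to the adaptor encoded by *Blnk*, which brings together *Btk* and phospholipase C gamma. *Pax5* is the transcription factor that commits lymphoid precursors to the B lineage, *Ms4a1* encodes the surface protein CD20, and *Vpreb3* encodes a protein of the endoplasmic reticulum that associates with newly made immunoglobulin chains in developing B cells. In the mouse, B cells arise in the fetal liver and later in the bone marrow, and reach the lung with the blood.

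The counts per library summed to between 41337443 and 53901957. The libraries E15.5 replicate 2, P8 replicate 1 and P8 replicate 2 stood apart by genes of the thymus. The summed level of 16 thymocyte and T cell markers was 449 and 796 CPM in P8 replicates 1 and 2 but 122 CPM in P8 replicate 3, against 110 to 126 CPM in the P5 libraries. The sum of 5 thymic epithelium markers was 47.1 CPM in E15.5 replicate 2 and 37.2 and 65.7 CPM in P8 replicates 1 and 2, and between 2.52 and 8.28 CPM in each of the other 9 libraries. P8 replicate 3 was much lower in these genes but above P5 in some, with 255 reads of *Rag1* and 44 of *Dntt*, recombination genes of developing lymphocytes, and 4 of *Foxn1*, the factor of thymic epithelium, against 23 to 61, 2 to 7 and 0 in the P5 libraries. Results at P8 are therefore given with P8 replicate 3 alone as well, and those at E15.5 without replicate 2 where this changed a direction. The lung markers *Nkx2-1* and *Sftpc* were present in every library, from 136 to 237 CPM and from 505 to 13186 CPM.

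All 7 B cell genes were low before birth and rose between E18.5 and P5. In each of them all 6 postnatal libraries lay above all 6 embryonic libraries, as was the case for 26.6% of the 15994 genes tested. In the edgeR quasi-likelihood test, with a gene called at an absolute log2 fold change above 1 and a Benjamini-Hochberg false discovery rate (FDR) under 0.05, 7 of 7 were called higher at P5 than at E18.5. Of all genes tested, 17.5% were called higher in this comparison and 9.34% lower. The median log2 fold change of the 7 genes was 5.04, and that of all genes tested was -0.0024. *Cd79a*, *Ms4a1*, *Pax5*, *Vpreb3* and *Blnk* reached 1 CPM in at least 3 libraries only through the postnatal libraries, so for these 5 genes passing the filter on low counts already required a high level after birth.

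Per kilobase of exon, the genes of the receptor itself had the highest mean levels of the 7 at P5. *Ighm* (ENSMUSG00000076617, chr12:113418558-113422730 on the minus strand of mm10, the constant region gene of the mu chain) was at 1.34, 3.79 and 2.05 CPM in E15.5 replicates 1, 2 and 3. It was at 2.32, 1.59 and 2.23 CPM at E18.5, at 62.6, 57.1 and 70.9 CPM at P5, and at 82.8, 91.3 and 44.98 CPM at P8. The highest embryonic value belonged to E15.5 replicate 2, a library with thymus genes, and the lowest P8 value to P8 replicate 3, where these genes were much lower than in the other P8 libraries. At P5 its log2 fold change over E18.5 was 5.04 (standard error, SE, 0.36, edgeR FDR = 1.0e-07).

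*Cd79a* (ENSMUSG00000003379, chr7:24897381-24902197, plus strand) was at 0.436, 0.236 and 0.256 CPM at E15.5 and at 0.205, 0.115 and 0.201 CPM at E18.5. It was at 11.4, 12.04 and 16.1 CPM at P5 and at 12.9, 13.2 and 8.30 CPM at P8. The E15.5 and E18.5 libraries did not overlap, but the step between them, -0.84 on the log2 scale, did not pass the threshold (edgeR FDR = 0.12). The step up to P5 was 6.31 (SE 0.32, edgeR FDR = 7.6e-09), a 79.5-fold difference in level.

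*Cd79b* (ENSMUSG00000040592, chr11:106311341-106314762, minus strand), whose protein pairs with that of *Cd79a*, was already read at a low level before birth. In CPM it was at 1.23, 1.81 and 1.89 in the E15.5 libraries, 2.11, 2.05 and 1.68 in those of E18.5, 16.6, 16.1 and 17.0 in those of P5, and 15.8, 15.2 and 12.2 in those of P8. In the embryonic libraries *Cd79b* was therefore above *Cd79a* in CPM, and also per kilobase of exon, with a mean of 1.36 against 0.119 CPM per kilobase at E18.5. The log2 fold change of P5 over E18.5 was 3.17 (SE 0.18, edgeR FDR = 1.8e-08), smaller than that of its partner, from this higher start.

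*Ms4a1* (ENSMUSG00000024673, chr19:11249675-11266241, minus strand) was close to absent before birth, with 5, 3 and 4 reads in the E15.5 libraries and 0, 6 and 1 in those of E18.5. At P5 it had 755, 594 and 988 reads (12.1, 12.3 and 16.2 CPM) and at P8 it had 535, 797 and 476 (10.98, 13.02 and 7.82 CPM). Its log2 fold change of P5 over E18.5 was the largest of the 7 genes, 8.25 (SE 0.47, edgeR FDR = 1.8e-08), with a 95% interval from 7.23 to 9.26. This fold change rests on 7 reads at E18.5, and with libraries left out in turn it ranged from 7.73 to 10.2, beyond that interval.

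*Pax5* (ENSMUSG00000014030, chr4:44524757-44710487, minus strand) had between 1 and 6 reads in each embryonic library. At P5 it was at 4.67, 4.73 and 5.97 CPM and at P8 at 5.77, 4.54 and 2.83 CPM. The log2 fold change of P5 over E18.5 was 5.98 (SE 0.46, edgeR FDR = 2.0e-07). Its exons share 761 bases with the opposite-strand genes *5730488B01Rik* and *Gm12462*, and the strand setting of the counting is not given in the sources used here, so reads on those bases cannot be assigned to a strand.

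*Vpreb3* (ENSMUSG00000000903, chr10:75943057-75949657, plus strand) was uneven between the embryonic libraries, at 0.0646, 0.0590 and 0.590 CPM at E15.5 and 0.513, 0.287 and 0.0916 CPM at E18.5. It was at 2.38, 3.88 and 2.91 CPM at P5 and at 5.32, 7.33 and 4.85 CPM at P8. All 3 P8 libraries lay above all 3 P5 libraries, P8 replicate 3 included, whereas 5 of the other 6 genes had their lowest postnatal value in P8 replicate 3. The log2 fold change was 3.44 at P5 over E18.5 (SE 0.68, edgeR FDR = 6.1e-04) and 0.92 from P5 to P8, which did not pass the threshold (SE 0.58, edgeR FDR = 0.29).

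*Blnk* (ENSMUSG00000061132, chr19:40928927-40994535, minus strand) changed least. It was at 0.420, 0.727 and 1.30 CPM at E15.5, at 0.575, 0.747 and 0.549 CPM at E18.5, then at 1.53, 2.64 and 2.20 CPM by P5 and at 3.30, 2.97 and 2.22 CPM at P8. The lowest P5 library was close above the highest E15.5 library. The log2 fold change of P5 over E18.5 was 1.84 (SE 0.38, edgeR FDR = 8.5e-04). *Blnk* is also used by cells of the myeloid lineage, and 10 of 13 macrophage and monocyte markers were called higher over the same interval. The 13 markers summed to 144 to 149 CPM at E18.5 and 2155 to 2771 CPM at P5. Most of the P5 sum was *Lyz2*, which alone was at 45.3 to 55.1 CPM at E18.5 and 1933 to 2483 CPM at P5. *C1qa*, *C1qb* and *C1qc* were not called, with log2 fold changes of 0.34, 0.18 and 0.12. The part of myeloid cells in the change of *Blnk* was not tested.

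**Figure D1:**
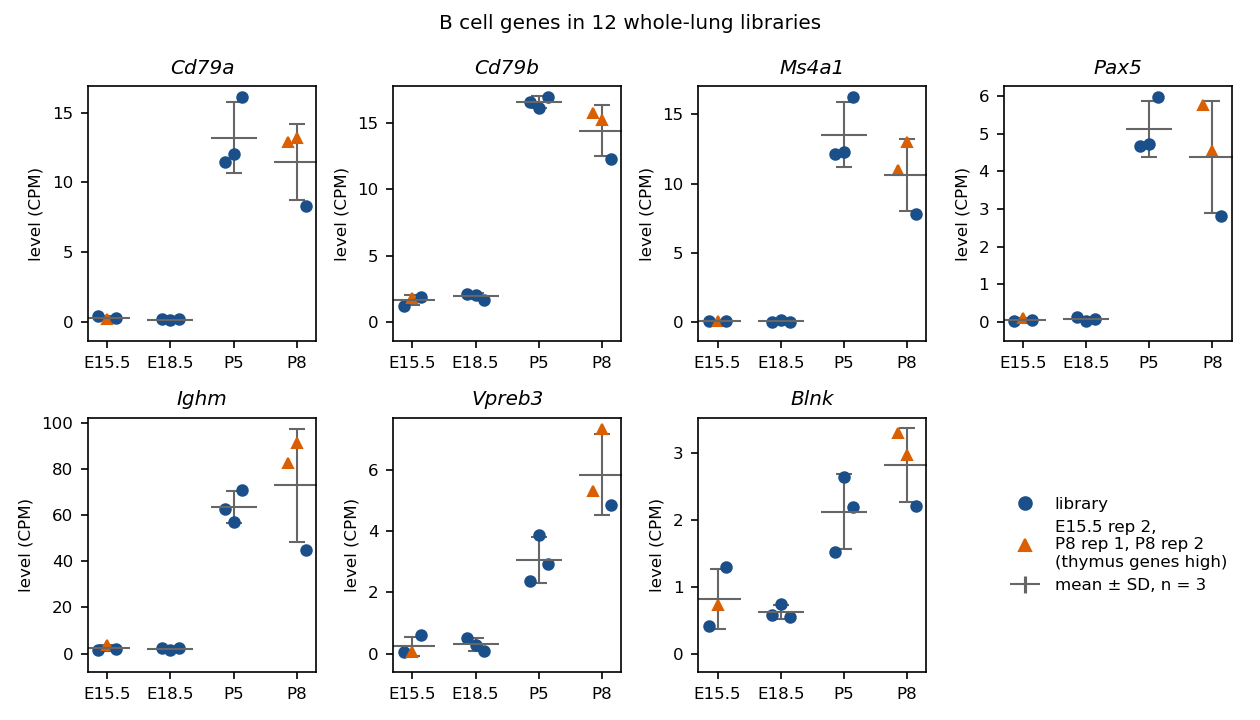
Level of each of the 7 B cell genes (vertical axis, CPM, each panel on its own scale) at the 4 time-points. Each point is 1 library, the horizontal mark and bar are the mean ± SD of 3 libraries, and triangles mark the libraries with high thymus genes. The embryonic points lie near 0 in Cd79a, Ms4a1 and Pax5, and P8 replicate 3 (the circle at P8) is the lowest P8 point in all 7 panels.

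Per kilobase of exon the order of the mean levels at P5 was *Ighm* (33.7 CPM per kilobase), *Cd79b* (11.6), *Cd79a* (9.05), *Vpreb3* (3.56), *Ms4a1* (2.19), *Pax5* (0.579) and *Blnk* (0.354). At P5 no neighbours in this order overlapped between libraries, although *Cd79a* reached 11.1 and *Cd79b* began at 11.3 CPM per kilobase. At P8 the levels of *Vpreb3*, from 5.64 to 8.54 CPM per kilobase, overlapped those of *Cd79a*, from 5.70 to 9.04, which in turn overlapped those of *Cd79b*, from 8.56 to 11.01. This overlap lay between libraries, and within each P8 library *Cd79b*, *Cd79a* and *Vpreb3* kept their P5 order. *Pax5* and *Blnk* overlapped as well at P8, from 0.319 to 0.651 and from 0.370 to 0.552 CPM per kilobase. Exon lengths are those of GENCODE vM21 with all transcripts of a gene joined, so a gene with long rarely used exons, as *Pax5* with 8853 bases, is placed low on this scale.

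Between E15.5 and E18.5 none of the 7 genes was called by edgeR, with 1 of 7 at an unadjusted p under 0.05 (*Cd79a*) and none called by DESeq2. Of all genes tested, 3.04% were called in this comparison in either direction. The log2 fold changes lay between -0.84 and 0.58, and 3 of 7 were positive. The direction of *Ighm* turned from -0.20 to 0.29 without E15.5 replicate 2, the library with thymus genes. *Vpreb3* was called higher at E18.5 (log2 fold change 2.22) without E15.5 replicate 3, which held 30 of the 37 *Vpreb3* reads at that time-point.

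Between P5 and P8 none of the 7 genes was called by edgeR or DESeq2, none had an unadjusted p under 0.05, and 2.96% of all genes were called in either direction. The log2 fold changes with all libraries were -0.22 for *Cd79a* (95% interval from -0.71 to 0.28), -0.22 for *Cd79b*, -0.37 for *Ms4a1*, -0.24 for *Pax5*, 0.19 for *Ighm*, 0.92 for *Vpreb3* and 0.41 for *Blnk*. With P8 replicate 3 as the only P8 library, assumed to vary like the other groups, they were -0.69 for *Cd79a* (95% interval from -1.35 to -0.03), -0.46 for *Cd79b*, -0.82 for *Ms4a1*, -0.88 for *Pax5*, -0.53 for *Ighm*, 0.64 for *Vpreb3* and 0.04 for *Blnk*. *Ighm* thereby turned from higher to lower, and the values of *Cd79a*, *Ms4a1* and *Pax5* moved further below 0. None was called in either fit (edgeR FDR from 0.25 to 0.98 with P8 replicate 3 alone, where 1 of 7 had an unadjusted p under 0.05). With E15.5 replicate 2 left out as well, 4 of 7 had an unadjusted p under 0.05, *Cd79a*, *Ms4a1*, *Pax5* and *Ighm*, all lower at P8, and none was called (edgeR FDR from 0.16 to 0.97).

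P8 replicate 3 was the lowest P8 library in all 7 genes, as it was in 33.9% of all genes tested. In 5 of 7, *Cd79a*, *Cd79b*, *Ms4a1*, *Pax5* and *Ighm*, it was also below all 3 P5 libraries, which held for 29.8% of all genes. Its level was 51.7% of the mean of P8 replicates 1 and 2 for *Ighm* and 79.0% for *Cd79b*, the lowest and the highest share, with a median of 65.2% over the 7 genes. P8 replicates 1 and 2 together were at a median of 101% of the P5 mean. P8 replicates 1 and 2 were thus close to P5 in *Cd79a* and *Pax5* (98.8% and 101% of P5) and above it in *Ighm*, *Vpreb3* and *Blnk* (137%, 207% and 148%). The same 2 libraries carried the thymus genes, with *Rag1* at 77.8 and 156 CPM against 4.19 CPM in P8 replicate 3, and *Dntt* at 21.5 and 42.7 against 0.723 CPM. The part of thymus tissue in the B cell genes of these 2 libraries was not tested.

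**Figure D2:**
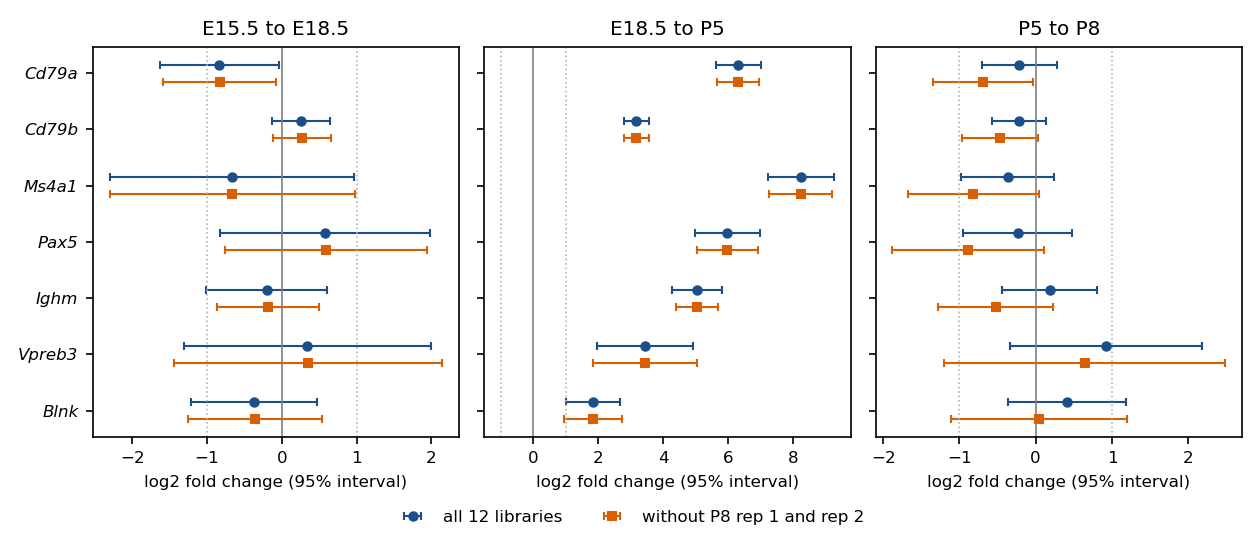
Log2 fold change of each B cell gene with its 95% interval (horizontal axis) in 3 comparisons of consecutive time-points, with all 12 libraries (circles) and without P8 replicates 1 and 2 (squares). Dotted lines mark 1 and -1. From E18.5 to P5 every gene lies to the right of 1 in both fits, while from P5 to P8 the squares of Cd79a, Ms4a1, Pax5 and Ighm lie to the left of their circles.

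All 7 genes were also called higher at P8 than at E18.5, where 19.6% of all genes were called higher, with log2 fold changes from 2.25 for *Blnk* to 7.88 for *Ms4a1*. With P8 replicate 3 as the only P8 library all 7 remained called, from 1.88 for *Blnk* (edgeR FDR = 0.0073) to 7.43 for *Ms4a1*. Levels above those of E18.5 were thus seen in P8 replicate 3 and in the 3 P5 libraries. P8 replicate 3 was much lower in thymus genes than the other P8 libraries but above P5 in some. The thymic epithelium markers of the P5 libraries summed to between 2.52 and 3.62 CPM. The part of thymus tissue in the rise was not tested.

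To compare the genes with each other at P5 and P8, each level was divided by that of *Cd79a* in the same library. The ratio of *Vpreb3* to *Cd79a* was 0.208, 0.322 and 0.181 at P5 and 0.412, 0.557 and 0.584 at P8, with no overlap. P8 replicate 3 gave the highest ratio, although both *Vpreb3* (4.85 CPM) and *Cd79a* (8.30 CPM) were lowest there of the P8 libraries. The ratio of *Blnk* to *Cd79a* was 0.133, 0.220 and 0.137 at P5 and 0.256, 0.226 and 0.267 at P8, also without overlap. *Ms4a1* went the other way, at 1.06, 1.02 and 1.01 at P5 and 0.851, 0.989 and 0.943 at P8. The ratios of *Cd79b*, *Pax5* and *Ighm* overlapped between P5 and P8, as did those of the light chain gene *Igkc* (1.33, 1.22 and 1.31 against 1.38, 1.30 and 1.14) and of *Ighd*, the constant region gene of IgD. Of 8 ratios tested, *Vpreb3*, *Blnk* and *Ms4a1* each had p = 0.10 in an exact two-sided permutation test, the smallest p that 3 libraries against 3 allow, and 0.27 after Benjamini-Hochberg adjustment. *Cd79a* was taken as the reference after its values were seen. All 8 ratios share it, so they are not independent of each other. The share of all genes whose ratio to *Cd79a* separates P5 from P8 was not computed.

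**Figure D3:**
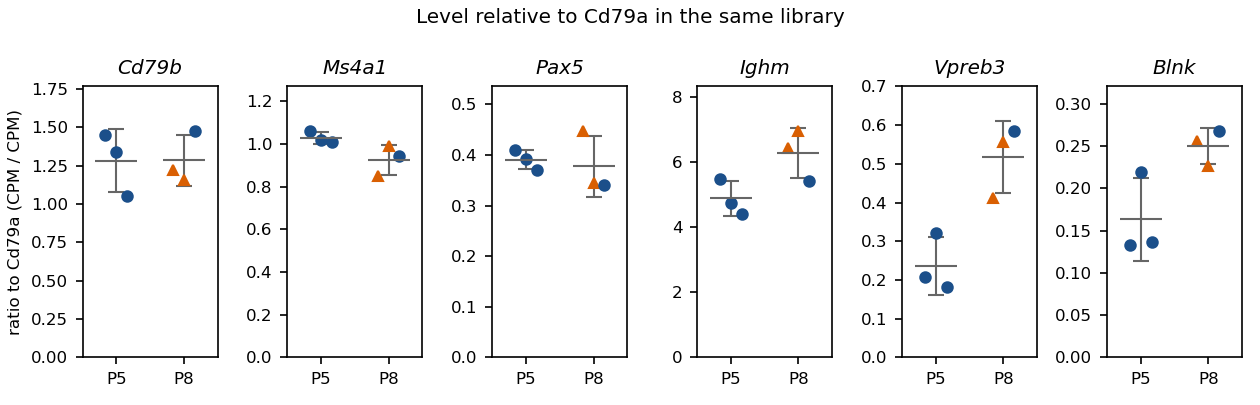
Ratio of the level of each gene to that of Cd79a in the same library (vertical axis, no unit, each panel on its own scale from 0) at P5 and P8. Each point is 1 library, bars are the mean ± SD of 3 libraries, and triangles are P8 replicates 1 and 2. The P8 points of Vpreb3 and Blnk lie above all P5 points, and those of Ms4a1 below.

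Genes of other receptors and receptor-like proteins of B cells rose with the 7 genes. Of 14 listed, 13 were tested and 13 were called higher at P5 than at E18.5, with a median log2 fold change of 4.39. Of these 13, 10 passed the filter on low counts only with the postnatal libraries, so their count and median are a description. *Cxcr5*, the receptor for the follicle chemokine *Cxcl13*, rose by 5.88 on the log2 scale (SE 0.63, edgeR FDR = 3.6e-06). *Fcrla* and *Fcmr*, which encode an Fc receptor-like protein and the receptor for IgM, held 2 and 3 reads over the E18.5 libraries and 889 and 520 over those of P5, ratios of 403 (95% counting interval from 111 to 3334) and 157 (from 53.5 to 765). None of the 13 was called between P5 and P8 by edgeR or DESeq2, with 2 at an unadjusted p under 0.05.

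Among 15 genes of signalling from the B cell receptor, 12 were called higher at P5 and none lower, with a median log2 fold change of 1.48, and 3 of the 15 passed the filter only with postnatal libraries. The kinase genes *Lyn* and *Syk*, which many other cells use as well, had log2 fold changes of 1.38 and 0.90, the latter not past the fold change cutoff. *Blk*, a kinase of B cells, went from 3 reads at E18.5 to 618 at P5, a ratio of 187 (95% counting interval from 63.6 to 908). *Bank1*, an adaptor of B cells, rose by 2.49 (SE 0.42, edgeR FDR = 1.6e-04) and *Pik3ap1*, which links the receptor to phosphoinositide 3-kinase, by 2.48 (SE 0.21, edgeR FDR = 4.2e-07). *Btk*, the kinase that acts with *Blnk*, rose by 2.21.

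Of 13 transcription factor genes of the lineage, 8 were called higher and 1 lower at P5, with a median log2 fold change of 1.88, and 5 of the 13 passed the filter only with postnatal libraries. *Pou2af1*, the coactivator of octamer-binding factors in B cells, rose from 0.123, 0.0191 and 0.0732 CPM before birth at E18.5 to 3.93, 3.45 and 5.34 CPM at P5, by 5.94 on the log2 scale (SE 0.43, edgeR FDR = 1.2e-07). *Spib*, an ETS factor, rose by 5.86 (SE 0.95, edgeR FDR = 1.3e-04) and had its highest embryonic level, 1.75 CPM, in E15.5 replicate 2. *Irf4* rose by 3.81 and *Ikzf3* by 3.35. *Ebf1*, which acts upstream of *Pax5* in the B lineage and is also expressed by mesenchymal cells, was at 12.2 to 15.3 CPM in the E18.5 libraries and 17.0 to 22.4 CPM in those of P5, and its log2 fold change of 0.61 did not pass the cutoff. *Bcl11a* fell by 2.54 (SE 0.17, edgeR FDR = 6.7e-08). Between P5 and P8 edgeR called only *Ikzf1* of these 13, at 1.07, and DESeq2 called *Ikzf1* and *Ikzf3*. *Ikzf1* was not called by edgeR without P8 replicates 1 and 2 (0.28).

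The motifs of these factors were looked for in the promoters of the 7 genes. RefSeq promoter windows on GRCm38.p6, from 250 bases before the start of a gene to 50 after it, were at hand for 4 of 7, *Cd79a*, *Pax5*, *Vpreb3* and *Blnk*. The motifs were chosen after the data were seen. The octamer ATTTGCAT, on either strand, was found in *Vpreb3*, 45 bases before the RefSeq start, and in *Blnk*, 130 bases before it, and in 1.74% of 32851 windows. The ETS core GGAAGT was found in *Cd79a*, *Vpreb3* and *Blnk*, and in 23.8% of all windows. The octamer matches at chr10:75948244-75948273 (plus strand) and chr19:40994333-40994362 (minus strand) and the ETS match of *Cd79a* at chr7:24897431-24897460 (plus strand) are shown because *Pou2af1* and *Spib* rose over the same interval as these genes, with the motif in capitals, 5′ to 3′ on the strand of the gene.
Vpreb3: tcagtgggctgATTTGCATgctctattgtg
Blnk: tactggaagggATTTGCATgcccaataagg
Cd79a: cacggctgaacaGGAAGTgaggcggagttt
The RefSeq starts differ from the GENCODE starts of the gene positions given above, and the stretches shown lie inside those GENCODE spans. In GENCODE vM21 the stretches of *Blnk* and *Cd79a* lie in annotated exons and that of *Vpreb3* in none. The *Pax5* window held neither motif. The palindrome CCCNNGGG, the core of the motif of the EBF family, was found in none of the 4 windows and in 13.7% of all windows. A match describes the letters of a window and does not show that a factor was bound. Only exact letters were searched, so the lack of a match does not show that a window has no site for the factor.

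The light chain genes and *Ighd*, which mark B cells past the precursor stages, rose over the same interval as *Ighm*. Before birth *Ighm* already held between 83 and 193 reads a library, while *Ighd* held at most 3. Of 16 immunoglobulin and plasma cell genes 8 were tested, and 6 were called higher at P5, with a median log2 fold change of 5.62 (4.84 with *Iglc2*, which had no reads at E18.5, at its lower bound), and 5 of the 8 passed the filter only with postnatal libraries. *Igkc*, the kappa constant region, had between 0 and 8 reads in each embryonic library and was at 15.2, 14.7 and 21.1 CPM at P5 and 17.8, 17.1 and 9.43 CPM at P8 (log2 fold change of P5 over E18.5 7.83, SE 0.56, edgeR FDR = 1.1e-07). *Iglc2*, a lambda constant region, was at least 77.1-fold higher at P5, against a floor of 3 reads over the E18.5 libraries. *Iglc1* went from 1 read to 482, and *Ighd* from 3 reads to 871, a ratio of 263 (95% counting interval from 89.8 to 1279). *Iglc2* and *Iglc3* are near-identical copies, so the split of reads between them is uncertain. The paper mapped reads uniquely, so reads common to both may have been dropped and the lambda sum may be too low. Per kilobase, kappa exceeded the sum of the 3 lambda genes by 3.21, 3.20 and 3.20 times in the P5 libraries and by 2.86, 4.13 and 3.22 times in those of P8, and *Ighm* exceeded *Ighd* by 15.3, 10.9 and 12.1 times at P5 and 21.97, 15.8 and 14.2 times at P8. P8 replicate 3 lay within the range of the P5 libraries in *Ighm* to *Ighd* and next to them in kappa to lambda.

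The plasma cell list was mixed. *Prdm1* and *Mzb1*, used in plasma cells but also elsewhere, were called higher at P5 (2.21 and 3.42 on the log2 scale), and 695 of the 1215 exon bases of *Mzb1* are shared with a neighbouring gene. *Xbp1* and *Sdc1*, which epithelial cells also express, were above 100 CPM in all 12 libraries and changed by 0.59 and 0.66, under the fold change cutoff. *Tnfrsf17*, the plasma cell receptor BCMA, had at most 4 reads in any library. The 5 constant regions of IgG and IgA summed to 14, 11 and 22 reads in the P5 libraries, where *Ighm* had 3898, 2766 and 4313, and to 66, 230 and 10 at P8. In the embryonic libraries the sum was between 2 and 60 reads, with the highest value in E15.5 replicate 2. These embryonic reads were all of *Ighg1* and *Ighg2c*. *Ighg1* held 20, 33 and 19 reads at E15.5, 14, 2 and 10 at E18.5 and 0, 0 and 3 at P5. Most of the P5 reads were of *Ighg3*, with 11, 7 and 16, which had no read before birth. *Jchain*, which joins IgM and IgA into polymers, was at 1.93 and 1.60 CPM in P8 replicates 1 and 2 and at 0.289 CPM or less in the other 10 libraries.

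Genes of B cell precursors differed in level. The sum of the 8 listed was 1.02, 15.6 and 0.610 CPM in E15.5 replicates 1, 2 and 3. It was 0.531 to 1.32 CPM at E18.5 and 4.44 to 7.41 CPM at P5. At P8 it was 108 and 212 CPM in replicates 1 and 2 and 8.09 CPM in replicate 3. *Rag1*, *Rag2* and *Dntt* are also among the 16 thymocyte and T cell markers. Most of the sum in P8 replicates 1 and 2 was *Rag1*, at 77.8 and 156 CPM, and *Dntt*, at 21.5 and 42.7 CPM. Most of it at P5 was *Il7r*, at 3.84, 2.705 and 4.37 CPM. The part of B cell precursors in the sum was not tested. The surrogate light chain genes *Vpreb1*, *Vpreb2* and *Igll1*, which pair with the mu chain in precursor cells, did not exceed 0.613, 0.226 and 0.349 CPM in any library and were not in the count table. The mean level of *Vpreb1* was 0.280 CPM at E18.5 and 0.145 CPM by P5, and that of *Igll1* was 0.174 and 0.0914 CPM. In reads, *Vpreb1* had 4, 32 and 8 against 3, 10 and 11, and *Igll1* 17, 9 and 0 against 4, 3 and 9. The time-points thus overlapped in both genes, and neither was in the main test. *Rag1* was at 0.466, 0.475 and 1.003 CPM at P5, and its value of 4.19 CPM in P8 replicate 3 was above the P5 libraries, together with *Dntt*, at 0.723 CPM against 0.0413 to 0.115 CPM at P5, and *Foxn1*, at 0.0657 CPM against 0. *Il7r* and *Flt3*, receptors of lymphoid precursors that mature lymphocytes and myeloid cells also use, rose by 4.01 (edgeR FDR = 8.5e-04) and 3.07 (edgeR FDR = 2.4e-04) from E18.5 to P5. *Rag1* and *Rag2* were called higher at P8 than at P5, by 6.89 and 4.91. Without P8 replicates 1 and 2 *Rag1* was not called (2.66), and *Rag2* no longer passed the filter on low counts and was not tested. All 4 precursor genes tested passed that filter only with postnatal libraries.

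The immunoglobulin variable segments are transcribed at a high level once recombination has joined them to D or J segments. They share transcripts with the constant regions above, so their reads are not independent of those. The CPM table lists 218 such segments, 113 of the heavy chain, 102 of kappa and 3 of lambda. In the embryonic libraries between 0 and 6 segments had a read, with 30 reads in all 6 libraries together. At P5, 144, 140 and 160 segments had at least 1 read, with 1391, 998 and 1594 reads, and at P8 it was 133, 138 and 121 segments with 1197, 1564 and 872 reads. The segment with the most reads, which was *Iglv1* in 5 of the 6 postnatal libraries, held between 5.75% and 8.47% of the variable segment reads of a library. Heavy chain segments alone held 515, 318 and 565 reads at P5 and 443, 606 and 289 at P8, but 11 in all 6 embryonic libraries, where *Ighm* held between 83 and 193 reads a library. Reads from near-identical segments may have been split or dropped in the counting, and a number of segments with a read grows with depth.

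**Figure D4:**
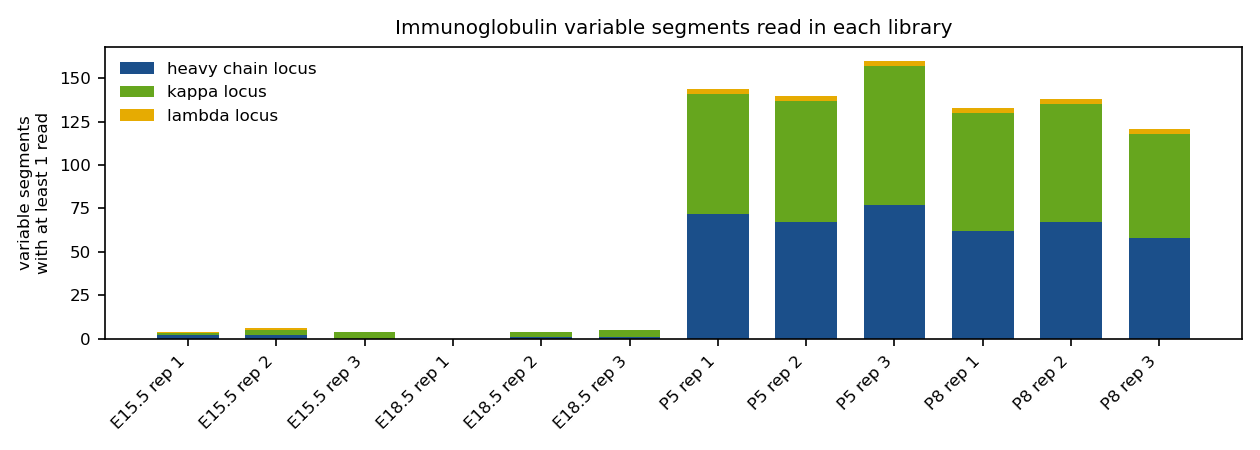
Number of immunoglobulin variable segments with at least 1 read (vertical axis) in each of the 12 libraries, stacked by heavy chain, kappa and lambda locus, of 218 segments. The 6 embryonic libraries have at most 6 segments and the 6 postnatal libraries from 121 to 160, with the lowest postnatal number in P8 replicate 3.

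Markers of other blood cells moved over the same interval as the B cell genes. From E18.5 to P5, 6 of 6 pan-leukocyte markers were called higher, with *Ptprc* (CD45) at 3.02, 3.31 and 3.92 CPM and then at 56.9, 42.6 and 55.6 CPM. Of 15 thymocyte and T cell markers tested, 9 were called higher and 1 lower, 12 having passed the filter only with postnatal libraries, and *Cd3e* went from 2 reads over the E18.5 libraries to 202 over those of P5. Of 5 red blood cell markers 5 were called higher, with a median log2 fold change of 2.17 against 5.04 for the B cell genes, and their summed level went from 2302 to 2806 CPM at E18.5 to between 7314 and 12689 CPM at P5. Within P5 the sum of the red blood cell markers was highest in replicate 1, whereas that of the 7 B cell genes was highest in replicate 3 (131 CPM, against 111 and 109 CPM in replicates 1 and 2). The part of blood retained in the lung in the rise of the B cell genes was not tested.

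**Figure D5:**
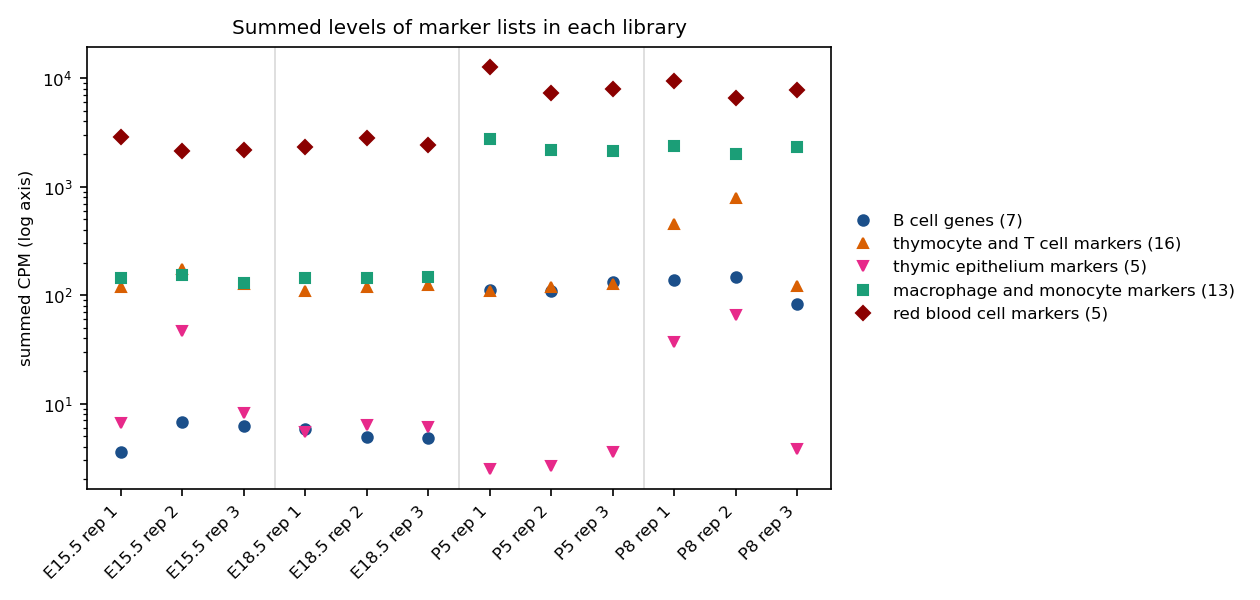
Summed CPM (vertical axis, logarithmic) of the 7 B cell genes and of 4 lists of markers of other cells in each of the 12 libraries. The B cell genes, the macrophage and the red blood cell markers are higher in all 6 postnatal libraries, while the thymic epithelium markers are high only in E15.5 replicate 2 and P8 replicates 1 and 2 of these 12.

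Among the 10 genes whose pattern was most like the mean of the 7 B cell genes over the 12 libraries, by Pearson's r of log2(CPM + 1), were *Rinl*, *Tnfrsf13b*, *Jaml*, *AW112010*, *Ccr7*, *Blk*, *Magix*, *Pou2af1* and *Prkag3*, with r from 0.992 to 0.996. *Blk*, *Tnfrsf13b* (the receptor TACI) and *Pou2af1* are genes of B cells on the lists above. Over the 9 libraries without E15.5 replicate 2 and P8 replicates 1 and 2 the 10 genes were others, *Hrct1*, *1190002N15Rik*, *Emid1*, *Mxra7*, *Gm5150*, *Nox4*, *Tmem204*, *Fez1*, *Ntng2* and *Nol3*, with r from 0.996 to 0.998. The libraries share a large step at birth, so many genes reach such values, and the ranking describes these libraries only.

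By single gene, *Cd79a* was most like *Igkc*, *Blk* and *Ms4a1*, and the 3 genes most like *Ms4a1* included *Igkc* and *Cd79a* and those most like *Pax5* included *Igkc* and *Blk*, all with r of at least 0.995. In the 9 libraries *Cd79a* kept the same 3 genes and *Ms4a1* kept *Igkc*. *Ighm* was most like *Ifi209*, *S100a1* and *Cd52*, and *Cd79b* like *Scd1*, *Cxcl15* and *2200002D01Rik*, with none of the other B cell genes among them. *Vpreb3* was most like *Sntn*, AU040972 and *Tctex1d4* (r from 0.988 to 0.990), and *Blnk* like *Fbxw9*, *Scgb3a1* and *Vpreb3* (r from 0.959 to 0.969). *Vpreb3* and *Blnk* also had the lowest r with the mean of the 7 genes, 0.965 and 0.947, against at least 0.990 for the other 5.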

How the data were processed

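Per the labels and the study's methods, RNA of 12 mouse lungs was sequenced as paired ends, and the authors aligned reads to mm10 with TopHat2 2.1.1 and Bowtie2 2.3.4 and counted them per Gencode gene with HTSeq 0.10.0. The deposited table of raw counts holds 16152 genes that the authors kept as expressed, at totals from 41337443 to 53901957 per library. The deposited CPM table holds 51825 genes, each value a count divided by the mapped reads of the library, and 100.0% of its values gave whole reads within 0.01 reads. A table of splicing values was not used here. Groups came from sample titles.

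The 7 genes and the lists were chosen with earlier results of these data known. Counts were tested with edgeR 4.0.16 (quasi-likelihood, TMM, all 12 libraries in 1 fit, R 4.3.3) over the 15994 genes that reached 1 CPM in 3 or more libraries, with adjustment over all of them and calls at an absolute log2 fold change above 1 and FDR under 0.05. DESeq2 1.42.0, library size only, no filter, recovered reads (at least 10), FDR alone, only the libraries compared, a replicate block and left-out libraries were the alternatives. The SE of an edgeR log2 fold change was its absolute value over the square root of the quasi-likelihood F, and 95% intervals were built from it. The test was checked on simulated counts. Named genes are the 7, up to 4 per list called with the largest change from E18.5 to P5 or P5 to P8, and *Igkc*, *Rag1*, *Dntt*, *Cd3e* and *Ptprc*. Some genes that this rule names are not reported here. Others named were chosen after their values were seen. Counting intervals are exact at 95% and cover counting error only.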

Additional observations from a re-analysis of the deposited data

How the results depend on the processing

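All 7 B cell genes were called higher at P5 and at P8 than at E18.5 under each of the 21 alternatives, and from P5 to P8 none was. With each library left out in turn the number called stayed at 7 for P5 and at 7 for P8 over E18.5, at 0 for P8 over P5, and ranged from 0 to 1 for E18.5 over E15.5, the 1 being *Vpreb3* without E15.5 replicate 3 (log2 fold change 2.22). Signs turned only among uncalled changes. From E15.5 to E18.5, *Ighm* went from -0.20 to 0.29 without E15.5 replicate 2 (from -0.51 to 0.29 with libraries left out in turn) and to 0.30 without that library and P8 replicates 1 and 2, *Vpreb3* from 0.34 to -0.10 in the latter and to values between -0.31 and 2.22 with libraries left out in turn, and *Blnk* between -0.70 and 0.14. From P5 to P8, *Ighm* went from 0.19 to -0.53 without P8 replicates 1 and 2 and to -0.52 without E15.5 replicate 2 as well. The cause was not tested. The replicate numbers did not pair the libraries (correlations of deviations from -0.34 to 0.30), and with a replicate block the number of B cell genes called was 7 for P5 and 7 for P8 over E18.5, 0 for P8 over P5 and 0 for E18.5 over E15.5. Without P8 replicates 1 and 2, the numbers called from P5 to P8 went from 10 to 0 of the thymocyte markers and from 4 to 0 of the thymic epithelium markers, while those tested went from 15 to 13 and from 5 to 3, since some had passed the filter through these libraries. Between 1 and 6 *Pax5* reads per embryonic library limit the precision of its fold change.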

Other observations

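Of 10 genes that attract or sustain B cells 7 were tested, and 3 were called higher and 1 lower at P5 than at E18.5, 3 of the 7 having passed the filter on low counts only with postnatal libraries. *Ltb*, the lymphotoxin beta chain that lymphocytes use to organise stroma, rose from 0.411, 0.287 and 0.146 CPM to 9.36, 9.25 and 14.1 CPM (an increase of 5.36 on the log2 scale, SE 0.44, edgeR FDR = 3.3e-07). *Tnfsf13*, which encodes the survival factor APRIL, rose by 4.39 (SE 0.67, edgeR FDR = 7.4e-05), though 1204 of its 1637 exon bases are shared with overlapping genes on either strand, so the reads are uncertain. Without P8 replicates 1 and 2 *Tnfsf13* no longer passed the filter on low counts and was not tested. *Ccl21a*, a chemokine of lymphatic vessels and lymphoid stroma, rose by 1.67 (SE 0.20, edgeR FDR = 9.6e-06). *Tnfsf13b*, the gene of the B cell survival factor BAFF, went the other way, from 4.13, 3.64 and 3.80 CPM at E15.5 over 1.79, 1.65 and 2.67 CPM at E18.5 to 0.706, 0.743 and 1.02 CPM at P5 and 0.821, 0.670 and 0.937 CPM at P8, and fell by 1.22 on the log2 scale between E18.5 and P5 (SE 0.25, edgeR FDR = 8.6e-04). Its receptor genes *Tnfrsf13b* and *Tnfrsf13c* rose by 2.16 and 5.38 over the same interval. *Cxcl13*, the ligand of *Cxcr5*, was at 1.11, 2.09 and 3.99 CPM at P5 and at 6.94, 8.35 and 2.88 CPM at P8, and was called only between E18.5 and P8 of the 4 comparisons (2.48 on the log2 scale), where it was 1.39 and not called without P8 replicates 1 and 2.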
